A study of Zea mays with 9 samples.

Results

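The genes described here are the maize transcripts that stood higher in the tassels of both mutants of the series, ndl1 and Bif1;Bif4, than in wildtype tassels. They number 98 of the 39305 gene identifiers in each of the deposited tables. A gene was a member when its mean normalized count (reads divided by a scaling factor of the library) was at least 50 in each mutant and every mutant library lay above all 3 wildtype libraries. In addition its L, the log2 of the mutant mean plus 1 over the wildtype mean plus 1, had to be at least 1 in both mutants. Of 5 genes left out by name (the hemoglobin gene GLB1, ppdk1, PIN10a, gst20 and ANAC010), 3 met these numbers. The members were thus chosen by their levels against wildtype, which are given as a description. Both mutants were set against the same 3 wildtype libraries, so that a low wildtype value raises L in both comparisons at once.

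Tassels, the male inflorescences, of 2 to 4 mm were taken from field-grown plants of the B73 inbred, which is the background of all 3 groups. The 4 ndl1 libraries came from plants mutated in zmftsh10, which encodes a mitochondrial protein with an ATPase domain, of the FtsH proteases. Severe tassels in which some axillary meristems had still formed were among the ndl1 samples. The 2 Bif1;Bif4 libraries came from plants heterozygous for both mutations, called the double mutant below, which affect Aux/IAA repressors of auxin signalling. The 3 wildtype libraries were from plants with neither mutation. Libraries held 16863087 to 22533736 reads counted to genes, and the labels do not say whether they came from separate plants.

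Both mutants form fewer axillary meristems, the groups of dividing cells on the flank of the young tassel that give rise to branches and spikelets. In the growing tassel, auxin marks where such a meristem starts, transcription factors of the MADS box, homeobox, YABBY and LOB families specify organs and their boundaries, and sugars supplied by older tissue feed growth. A gene can stand higher per unit of tassel RNA because its level per cell is higher or because the cells that use it make up more of the tassel. In these bulk samples the number of cells of a kind and the RNA per cell cannot be told apart.

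The members ranged widely in size of difference. L ran from 1.01 to 4.93 in ndl1, with a median of 1.48, and from 1 to 4.98 in Bif1;Bif4, with a median of 1.36. Over all 18298 genes with a mean of at least 50 in both mutants the median L was -0.01 in ndl1 and -0.00 in Bif1;Bif4. In both mutants 9 members had an L of at least 2, whereas 71 had an L under 1.5 in at least 1 mutant, so that most lay close to the threshold. Members made up 0.536% of those 18298 genes. The reverse rule, lower in both mutants from a wildtype mean of at least 50, held for 75 genes.

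**Figure D1:**
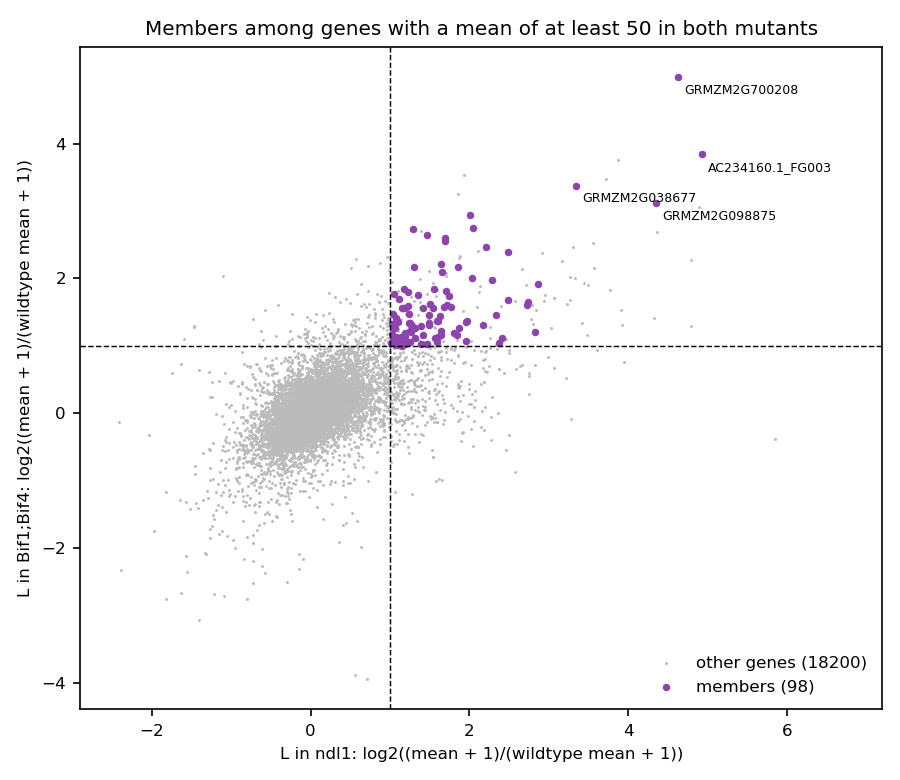
L in ndl1 (x axis, log2) against L in Bif1;Bif4 (y axis, log2) for the genes with a mean of at least 50 in both mutants; purple points are the 98 members, grey points the other genes, and dashed lines mark an L of 1. Both axes share the wildtype libraries, and most members lie near the lower left corner of the upper right quadrant, with 4 identifiers above 3 on both axes.

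The membership of the set depended on single wildtype libraries. Without wildtype replicate 3 the same rule gave 278 genes, with 96 of the 98 among them, and without wildtype replicate 2 it gave 72 genes, with 64 of the 98 among them. Leaving out ndl1 replicate 2 gave 146 genes, including all 98. In each of these repeats the rest of the rule was kept. With fewer libraries the demand for no overlap is easier to meet, so that part of a rise in number can follow from the rule itself.

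The members with the largest smaller L of the pair of mutants carried no descriptive name in the RefSeq gene table, so that no role can be given for them here. Levels here and below are normalized counts with the 9 libraries scaled together, a scaling under which the rule found the same 98 genes, and replicates are given in numerical order. GRMZM2G700208 stood at 420.1, 408, 1285 and 1456 in ndl1 and at 2167 and 121 in Bif1;Bif4, against 3.89, 87.3 and 14.0 in wildtype. Its lower Bif1;Bif4 library thus lay just above wildtype replicate 2, and the ratio between the pair of double mutant libraries, 17.9, was the largest among the members. AC234160.1_FG003 stood at 131, 108, 120.4 and 377 in ndl1 and at 116 and 56.3 in the double mutant, against 2.92, 2.91 and 9.32 in wildtype. All its mutant libraries lay several-fold above the highest wildtype library. GRMZM2G038677 stood at 97.1, 70.9, 184 and 197 in ndl1 and at 144 and 136 in Bif1;Bif4, against 6.81, 2.91 and 27.9 in wildtype. GRMZM2G098875 stood at 2379, 513, 1230 and 1495 in ndl1 and at 617 and 578 in the double mutant, against 25.3, 23.3 and 155 in wildtype. For these 2 identifiers wildtype replicate 3 was the highest wildtype library. The next 6, GRMZM2G159500, GRMZM2G051619, GRMZM2G146809, GRMZM2G300965, GRMZM2G025611 and GRMZM2G035503, had L values from 2.01 to 2.49 in ndl1 and from 1.98 to 2.94 in Bif1;Bif4. GRMZM2G035503 had the most even wildtype values of them, at 203, 68.7, 120.4 and 129 in ndl1 and at 107 and 105 in Bif1;Bif4, against 26.3, 26.2 and 25.6 in wildtype.

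**Figure D2:**
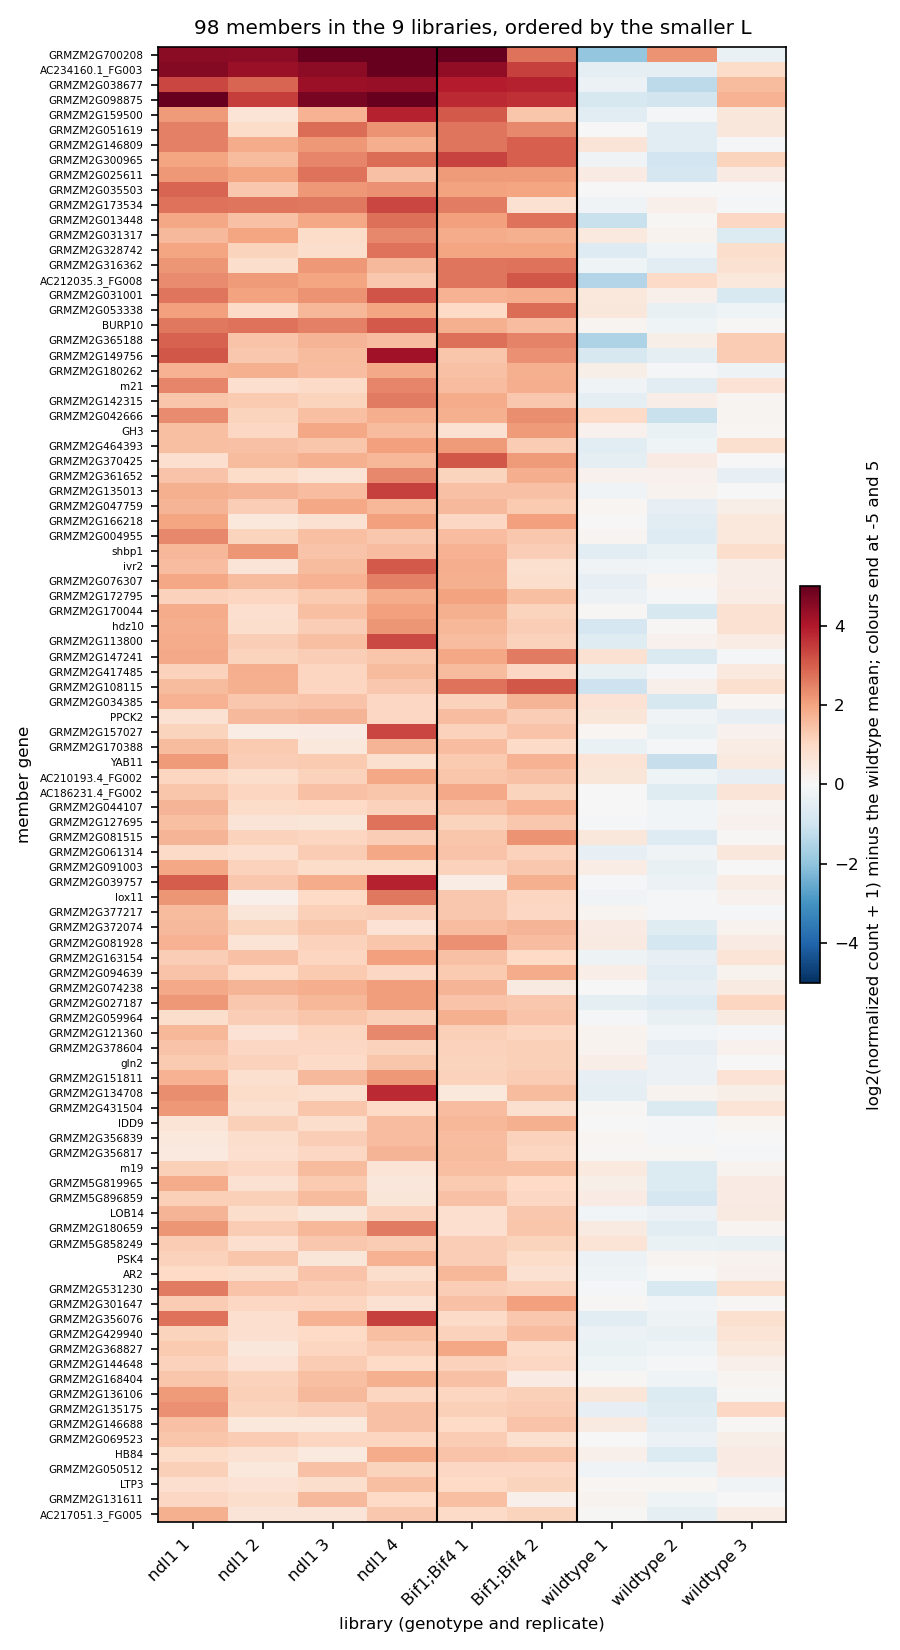
Heat map of the 98 members (rows, ordered from the largest to the smallest of their smaller L) in the 9 libraries (columns), coloured by log2(normalized count + 1) minus the wildtype mean of the gene. Red of varying depth runs through all 6 mutant columns, palest in ndl1 replicate 2, and many rows are blue in wildtype replicate 2 and pale red in wildtype replicate 3.

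Of the 98 members, 71 matched 1 RefSeq gene, 1 matched several and 26 matched none, and 17 had a descriptive name. The 17 held 7 genes of transcription factor families, 3 of hormones and peptide signals, 3 of carbon and nitrogen metabolism, a lipid transfer protein gene, a BURP family gene and 2 (shbp1 and AR2) whose role is not described here.

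Of the transcription factor genes, m19 is the MADS box gene tunicate1, whose dominant allele gives pod corn, in which leaf-like glumes enclose the kernels. It stood at 3363, 2966, 4362 and 2310 in ndl1 and at 4135 and 4082 in the double mutant, against 2052, 909 and 1652 in wildtype (GRMZM2G370777, L 1.08 in ndl1 and 1.41 in Bif1;Bif4). The lowest ndl1 library lay only a little above the highest wildtype library, while the Bif1;Bif4 pair lay close together at about the level of the highest ndl1 library. The other MADS box member by name, m21 (GRMZM5G814279), stood at 697, 231, 248 and 707 in ndl1 and at 369.7 and 456 in Bif1;Bif4, against 114, 86.3 and 212 in wildtype. Replicates 1 and 4 of ndl1 were high and replicates 2 and 3 were barely above wildtype replicate 3.

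The homeodomain-leucine zipper gene hdz10 (GRMZM2G041127) stood at 1232, 643, 804 and 1603 in ndl1 and at 1101 and 808 in the double mutant, against 195, 357 and 593 in wildtype. Its wildtype libraries thus spread over a wide range, and the lowest mutant library, ndl1 replicate 2, lay just above wildtype replicate 3. The homeobox gene HB84 (GRMZM2G099319), among the members nearest the threshold, stood at 111, 97.95, 82.3 and 211 in ndl1 and at 159 and 152 in Bif1;Bif4, against 70.0, 35.9 and 78.0 in wildtype. The IDD9 gene (GRMZM5G884137, also listed as Nkd2), an indeterminate-domain zinc finger gene known from the aleurone of the kernel, stood at 210, 302, 239 and 382 in ndl1 and at 409.7 and 447 in the double mutant, against 132, 121 and 139 in wildtype. Its wildtype libraries lay close together, and both double mutant libraries lay above all ndl1 libraries.

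The YABBY gene YAB11 (GRMZM2G141955), of a family that marks a face of lateral organs, stood at 133, 70.9, 74.3 and 51.7 in ndl1 and at 73.6 and 102 in Bif1;Bif4, against 47.7, 12.6 and 41.9 in wildtype. Replicate 4 of ndl1 was only slightly above wildtype replicate 1. The LOB family gene LOB14 (GRMZM2G044902), of a family that acts at organ boundaries, stood at 1252, 721, 569 and 863 in ndl1 and at 688 and 987 in the double mutant, against 348, 317 and 526 in wildtype. The L of LOB14 was 1.10 in ndl1 and 1.07 in Bif1;Bif4, and that of YAB11 1.25 and 1.33.

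Of the signalling genes, GH3 (GRMZM2G378106) belongs to a family whose enzymes join auxin or other hormones to amino acids. It stood at 437, 309.6, 593 and 462 in ndl1 and at 261 and 662 in Bif1;Bif4, against 177, 121 and 165 in wildtype. All 6 mutant libraries were higher, with a more than 2-fold gap between the Bif1;Bif4 pair. The lipoxygenase gene lox11 (GRMZM2G009479), of the enzyme family that starts the synthesis of jasmonate and other oxylipins, stood at 2044, 524, 879 and 2685 in ndl1 and at 1106 and 918 in the double mutant, against 389, 425 and 503 in wildtype. Replicate 2 of ndl1 lay next to wildtype replicate 3. PSK4 (GRMZM2G031261), a phytosulfokine gene encoding the precursor of a sulfated growth peptide, stood at 75.6, 88.9, 51.3 and 116 in ndl1 and at 80.9 and 64.8 in Bif1;Bif4, against 27.2, 36.9 and 38.4 in wildtype. Its neighbour GRMZM2G031317, with 0 protein-coding genes between them on chromosome 10 of the RefSeq table, was also a member, at 261, 334, 163 and 449 in ndl1 and at 313 and 294 in the double mutant, against 119.6, 97.0 and 52.4 in wildtype. This was the only pair of members with fewer than 5 protein-coding genes between them in that table, among the 71 that matched 1 gene. In PSK4 and its neighbour ndl1 replicate 4 was the highest and replicate 3 the lowest ndl1 library, whereas the wildtype libraries were in different orders.

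The metabolic members included the invertase gene ivr2 (GRMZM2G089836), whose enzyme splits sucrose in the vacuole. It stood at 85.9, 45.04, 88.5 and 250.4 in ndl1 and at 103 and 51.0 in Bif1;Bif4, against 25.3, 26.2 and 36.1 in wildtype. A single library, ndl1 replicate 4, carried much of the ndl1 mean. PPCK2 (GRMZM2G135091), the gene of a kinase that activates phosphoenolpyruvate carboxylase, stood at 159.6, 287, 306 and 192 in ndl1 and at 271 and 219 in the double mutant, against 141, 81.5 and 69.9 in wildtype. The glutamine synthetase gene gln2 (GRMZM2G024104), whose enzyme assimilates ammonium, stood at 1572, 1394, 1234 and 1660 in ndl1 and at 1374 and 1455 in Bif1;Bif4, against 787, 519.8 and 621 in wildtype. For gln2 the mutant libraries formed a narrow band, and the ratio of means was 2.28 in ndl1 and 2.19 in Bif1;Bif4.

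Of the remaining named members, the lipid transfer protein gene LTP3 (GRMZM2G126397) stood at 4396, 3975, 4537 and 6827 in ndl1 and at 4818 and 5339 in the double mutant, against 2604, 2584 and 2154 in wildtype. Its L of 1.01 in ndl1 and 1.05 in Bif1;Bif4 placed it next to the threshold. BURP10 (GRMZM2G446170), of the plant BURP family of secreted proteins, stood at 457, 486, 418 and 624 in ndl1 and at 249 and 217 in Bif1;Bif4, against 80.7, 62.1 and 76.9 in wildtype. All ndl1 libraries of BURP10 lay above both double mutant libraries. The gene listed as shbp1 (GRMZM6G741210) stood at 60.7, 90.1, 52.2 and 56.6 in ndl1 and at 64.5 and 45.7 in the double mutant, against 12.6, 14.6 and 34.9 in wildtype. AR2 (GRMZM2G059314) stood at 145, 132, 195 and 133 in ndl1 and at 228 and 122 in Bif1;Bif4, against 62.2, 70.8 and 82.7 in wildtype. Replicate 3 was the highest wildtype library of both, and in shbp1 it stood well above the other two. Normalized counts are not per length, so that they do not rank the genes against each other.

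**Figure D3:**
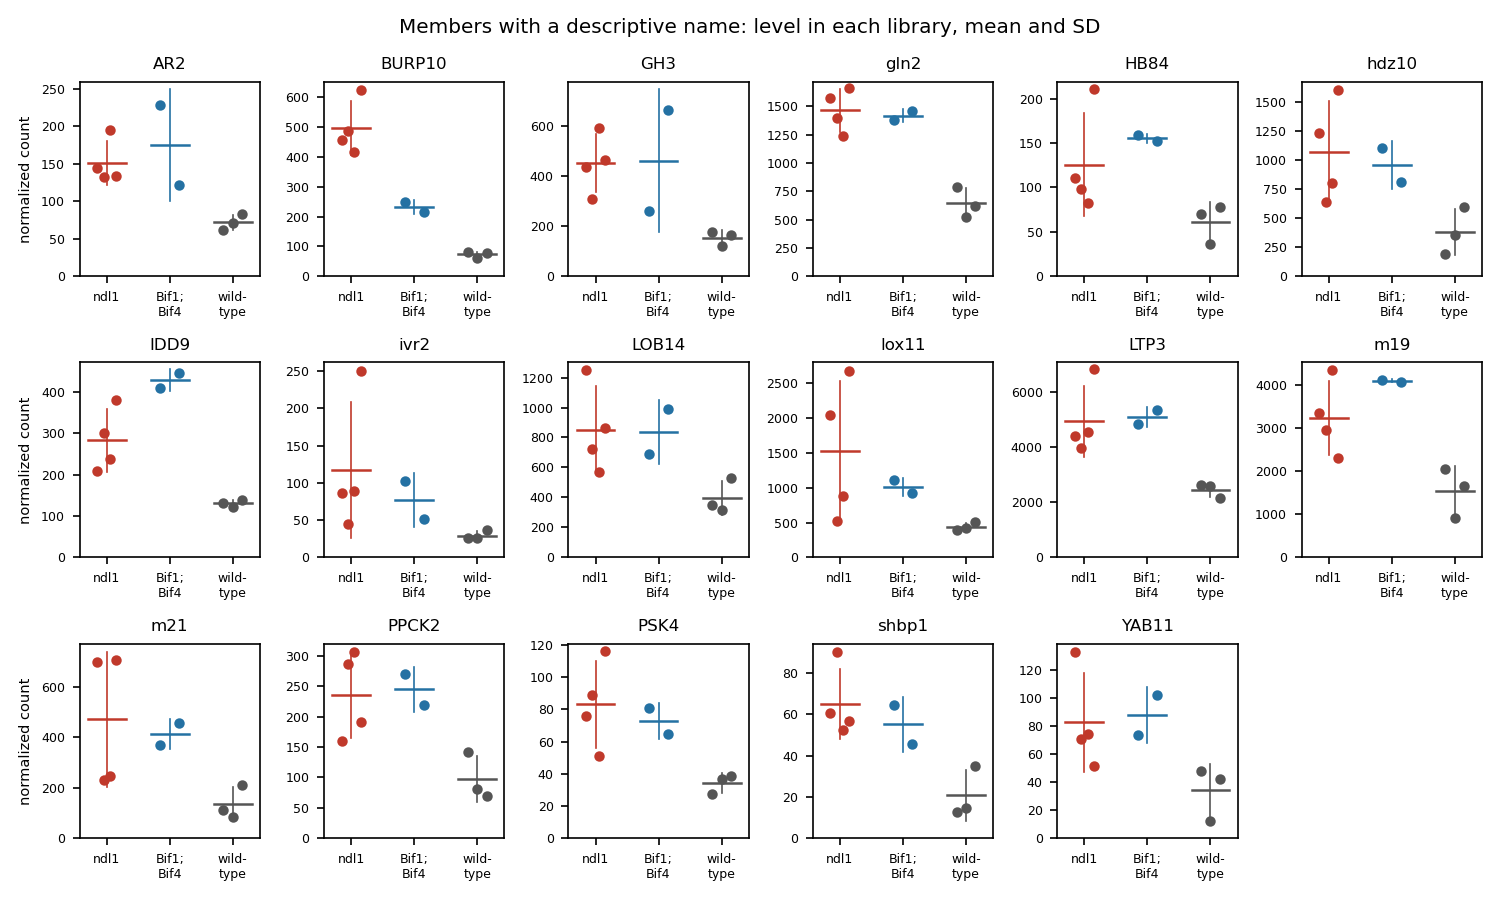
Normalized counts (y axis, 9 libraries scaled together, starting at 0) of the 17 members with a descriptive name in the 4 ndl1, 2 Bif1;Bif4 and 3 wildtype libraries; points are libraries, horizontal bars means and vertical bars 1 SD. In every panel the mutant points lie above the wildtype points, as the rule required, and ivr2, lox11 and m21 have the widest spread among ndl1 libraries.

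At the threshold, the members just inside were HB84, GRMZM2G050512, LTP3, GRMZM2G131611 and AC217051.3_FG005, whose smaller L ran from 1 to 1.02. The genes just outside were IDDveg9 (GRMZM2G129261), GRMZM2G108032, GRMZM2G039919, GRMZM2G311680 and P4H4 (GRMZM5G843555). Their smaller L ran from 0.98 to 0.99. IDDveg9, by name of the same indeterminate-domain family as IDD9, had an L of 1.05 in ndl1 and 0.99 in Bif1;Bif4.

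As a description of the comparisons that chose the members, limma called 44 of the 98 higher in ndl1 than in wildtype at a Benjamini-Hochberg adjusted p under 0.05, beside 1.94% of all 22416 genes tested, and 0 lower, beside 1.22%. In Bif1;Bif4 it called 39 of the 98 higher than in wildtype, beside 2.23% of 22381 genes, and 0 lower, beside 2.05%. By these calls 26 members passed in both mutants and 41 in neither, and nothing is read from the counts since the rule used the same values. The ndl1 count was 21 without ndl1 replicate 1, beside 179 of all 22165 genes, and 28 without ndl1 replicate 3, beside 330 of 22202. It was 18 without wildtype replicate 1, beside 176 of 22876 genes, and 9 without wildtype replicate 2, beside 96 of 22820. Without wildtype replicate 2 the double mutant count was 0, and 0 of all 22133 genes were called higher there. Without Bif1;Bif4 replicate 1 or 2, with 1 library left in that group, the median log2 change of members was 1.37 or 1.52. By the authors' deposited table for ndl1, a DESeq2 adjusted p under 0.05 was reached by 82 of the 98, beside 5.23% of all genes with such a value that were higher there, and 3 members were left without a value. By the authors' deposited table for the double mutant the number was 74, beside 4.56% of all genes, and 64 members passed in both. By DESeq2 on the recovered reads 91 members were called higher in ndl1 than in wildtype, beside 5.72% of all genes, and 73 in the double mutant, beside 4.58%.

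Whether the members stood at different levels in ndl1 and in Bif1;Bif4 was not fixed by the rule, and this was tested directly over the 9 libraries scaled together (limma on log2(normalized count + 1), adjusted over all 23203 genes tested). BURP10 was the only member called higher in ndl1, with a mean and SD of 496 ± 89.6 over the 4 ndl1 libraries and 233 ± 22.7 over the 2 Bif1;Bif4 libraries. Its log2 difference, ndl1 minus Bif1;Bif4, was 1.08 ± 0.18 (SE, limma, Benjamini-Hochberg adjusted p = 0.0127), with 4 of 4 ndl1 libraries above both double mutant libraries. Over all genes tested 1.79% were called higher in ndl1 and 1.68% lower, so that 1 of 98 is near that background. The call of BURP10 was lost without Bif1;Bif4 replicate 1 (limma, Benjamini-Hochberg adjusted p = 0.0819) and without Bif1;Bif4 replicate 2 (adjusted p = 0.151), each of which left 1 library in that group, assumed to vary like the other groups. Without Bif1;Bif4 replicate 1 another member, GRMZM2G173534, was called higher in ndl1 in its place. The adjusted p of BURP10 was 8.39e-06 to 0.151 over all 17 alternatives, the lowest by DESeq2.

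No member was called lower in ndl1 than in Bif1;Bif4 by limma, with 7 at an unadjusted p under 0.05. By edgeR's quasi-likelihood test the count was also 0, and by DESeq2 it was 2, beside 3.05% of all genes with a DESeq2 adjusted p. DESeq2 called 1 member higher in ndl1, BURP10, beside 3.45%. Both member counts are near or under the share of all genes. The 2 called lower were GRMZM2G108115 and GRMZM2G370425, named after their values were seen. GRMZM2G108115 stood at 319, 367, 226 and 273 in ndl1 and at 701 and 919 in the double mutant, against 50.6, 127 and 184 in wildtype. The log2 difference of GRMZM2G108115, -1.46 ± 0.42 (SE, limma, Benjamini-Hochberg adjusted p = 0.107), was the lowest of the members, and it passed without wildtype replicate 1 and in a fit of the 6 mutant libraries alone. GRMZM2G370425 stood at 81.2, 139.6, 158 and 148 in ndl1 and at 394 and 203 in Bif1;Bif4, against 33.1, 61.1 and 46.6 in wildtype. Its difference was -1.14 ± 0.36 (SE, limma, Benjamini-Hochberg adjusted p = 0.133). In both genes all ndl1 libraries lay below both double mutant libraries.

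For most members the data did not separate the mutants, and the intervals were wide. The differences ran from -1.46 to 1.45, with a median of -0.01 beside 0.00 over all genes tested; 46 were positive and 52 negative. Of the 98, 70 lay within 0.5 log2 units of 0. The 95% interval lay inside 1 log2 unit on both sides for 37 members and reached further for 61, so that for these 61 the data do not limit the difference to under 2-fold. An unadjusted p under 0.05 was reached by 11.2% of members, beside 18.1% of all genes tested. The median standard error was 0.38 for members and 0.16 for all genes tested. Without overlap between the groups, 5 members were higher in ndl1, beside 13.3% of all genes tested, and 10 were lower in ndl1, beside 14.5%.

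Among the named members, gln2 had the narrowest interval, at a log2 difference of 0.04 with limits of -0.33 and 0.41. LTP3 lay at -0.07, with limits of -0.50 and 0.35. For m19 the difference was -0.38, with limits of -1.07 and 0.32, and for LOB14 it was -0.01, with limits of -0.70 and 0.67. The interval of gln2 holds no difference as large as 1 log2 unit, nor does that of LTP3 or LOB14, while that of m19 does. GH3 lay at 0.08 with limits of -0.72 and 0.88, and lox11 at 0.32 with limits of -0.89 and 1.54. IDD9 was lower in ndl1 by its mean, at -0.63 with limits of -1.11 and -0.16, and did not pass after adjustment (limma, Benjamini-Hochberg adjusted p = 0.158). It passed without ndl1 replicate 4, its highest ndl1 library (limma, Benjamini-Hochberg adjusted p = 0.0369, with 0.0369 to 0.508 over all alternatives).

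**Figure D4:**
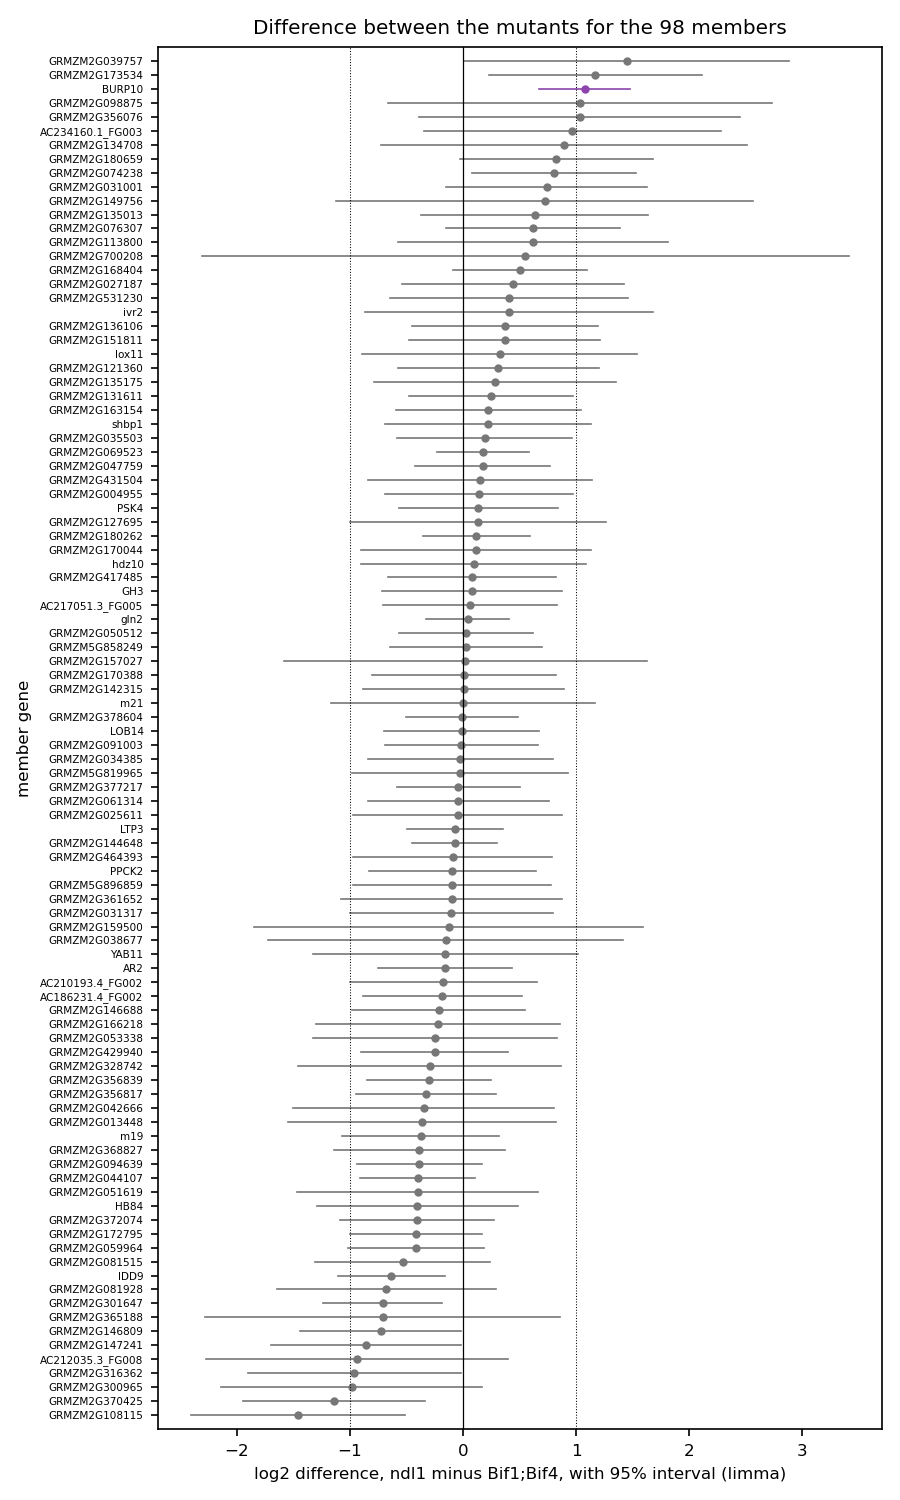
Log2 difference, ndl1 minus Bif1;Bif4, of each of the 98 members (x axis) with its 95% interval from limma, sorted by size; dotted lines mark -1 and 1, and purple marks an adjusted p under 0.05. BURP10, at 1.08, is the single purple gene, and most intervals cross 0.

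Within each group the libraries spread more widely for the typical member than for the typical gene, which is given as a description. The genes compared were not matched for level, and 35 of the 98 members had a wildtype mean under 50. The median coefficient of variation was 33.9% for members in ndl1, beside 11.2% over the 18827 genes with a mean of at least 50 across libraries. In the double mutant it was 19.1% beside 6.29%, and in wildtype 36.0% beside 8.49%. In 51 of the 98 members the highest wildtype library was more than 2-fold above the lowest, and in 55 the same held among ndl1 libraries. In 13 members the pair of double mutant libraries differed by more than 2-fold.

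Many members shared the order of the libraries. Within ndl1, replicate 2 was the lowest library for 57.1% of members, beside 22.0% of all genes, and replicate 4 was the highest for 50%, beside 29.6%. Within wildtype, replicate 3 was the highest library for 60.2% of members, beside 37.8%, and replicate 2 the lowest for 58.2%, beside 30.8%. The members together made up 0.289%, 0.200%, 0.247% and 0.329% of all normalized counts in ndl1 replicates 1 to 4 and 0.284% and 0.278% in Bif1;Bif4, against 0.106%, 0.0828% and 0.117% in wildtype. By this share of the members ndl1 replicate 2 was thus the mutant library nearest to wildtype. In that library 25 of the 98 members were at least 2-fold above the highest wildtype library, against 67, 38 and 61 in ndl1 replicates 1, 3 and 4. In Bif1;Bif4 replicates 1 and 2 the numbers were 55 and 47. The rule used these values and the same counts were not made over all genes, so that they are a description only.

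The order of the wildtype libraries split the named members. In 35 members wildtype replicate 3 was the highest and replicate 2 the lowest, among them m21, IDD9, LOB14 and HB84, which is 35.7% of members beside 17.3% of all genes. In 24, with shbp1, ivr2, hdz10, lox11, PSK4 and AR2, replicate 3 was the highest and replicate 1 the lowest, 24.5% of members beside 20.5%, and ndl1 replicate 4 was the highest ndl1 library in 17 of these. In 22, with BURP10, GH3, YAB11, gln2 and m19, wildtype replicate 1 was the highest and replicate 2 the lowest, 22.4% of members beside 13.5%. In 10, with PPCK2 and LTP3, replicate 1 was the highest and replicate 3 the lowest, 10.2% beside 19.3%. In the remaining 7 members replicate 2 was the highest. In 12 of those 22, ndl1 replicate 1 was the highest ndl1 library. These splits were seen in the data and were not tested.

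Marker genes of the labelled tissue and of others differed in level between the groups beside the members. The 9 tassel meristem genes matched by name (among them KN-1, BA1, baf1, ra1 and ra3), which mark the labelled tissue, had a summed level of 5596 to 8860 normalized counts in ndl1 and 6354 to 6591 in Bif1;Bif4, against 9962 to 11496 in wildtype. The gene listed as KN-1, a homeobox gene that keeps meristem cells undifferentiated, made up most of this sum. It stood at 5048, 7628, 6740 and 5580 in ndl1 and at 5897 and 6084 in Bif1;Bif4, against 7623 to 8650 in wildtype, so that ndl1 replicate 2 lay within the wildtype range. Among the 9, spi1 stood at 47.6 to 83.3 in ndl1 but at 108 and 91.4 in Bif1;Bif4, against 105 to 120 in wildtype. The mean log2 deviation of the 9 genes from wildtype was -2.34, -1.02, -0.73 and -1.57 in ndl1 replicates 1 to 4 and -3.16 and -3.52 in Bif1;Bif4. The 6 vascular and secondary wall genes matched, of which both cesa11 identifiers had no read, summed to 1020 to 1288 in ndl1 and 899 to 1101 in Bif1;Bif4, against 894 to 1087 in wildtype. Most of this sum was cesa10, a cellulose synthase gene, at 892 to 1129 in ndl1 and 770.4 to 808.5 in Bif1;Bif4, against 800.4 to 986 in wildtype. The mean log2 deviation of the 4 with a mean of at least 10 was 0.38 to 0.88 in ndl1 and 1.24 and 0.27 in Bif1;Bif4, against -0.12 to 0.19 in wildtype. This mean was thus higher in all 6 mutant libraries, but not every gene was. BM1 was, at 55.2 to 99.1 in ndl1 and 132.6 and 63.75 in Bif1;Bif4, against 39.8 to 53.5 in wildtype. CesA12 stood at 21.9 to 55.75 in ndl1 and 74.5 and 45.7 in Bif1;Bif4, against 19.4 to 31.4 in wildtype. For ccr2 the levels were 48.4 to 56.9 in ndl1 and 85.4 and 19.1 in Bif1;Bif4, against 11.7 to 25.2 in wildtype. The 9 photosynthesis genes matched summed to 794 to 1567 in ndl1 and 830 to 1033 in Bif1;Bif4, against 575 to 626 in wildtype, with 2 of the 9 under 1 normalized count in every library. Of that sum, ppdk1, one of the genes left out by name, made up 351 to 1205 in ndl1 and 199.9 to 475 in Bif1;Bif4, against 34.0 to 90.8 in wildtype. The mean log2 deviation of the 3 photosynthesis genes with a mean of at least 10 was 0.62 to 0.96 in ndl1 and 1.17 and 0.77 in the double mutant, against -0.13 to 0.12 in wildtype. Of these 3, ppdk1 alone lay above all wildtype libraries in all 6 mutant libraries. Pep1 was lower in every ndl1 library than in wildtype, at 305.2 to 431.9 against 495.5 to 525.2. In Bif1;Bif4 Pep1 stood at 548.7 and 523.8. The levels of cab-m9 were 4.968 to 15.04 in ndl1 and 37.25 and 6.375 in Bif1;Bif4, against 9.315 to 14.59 in wildtype. The 4 later spikelet genes summed to 1952 to 2662 in ndl1 and 1581 to 1803 in Bif1;Bif4, against 2379 to 2992 in wildtype. Most of this sum was zap1, at 1557 to 2172 in ndl1 and 1443 and 1092 in Bif1;Bif4, against 1768 to 2261 in wildtype. Like it, m16 was lower in Bif1;Bif4, at 193 and 245.5 against 504 to 632. The gene listed as AGAMOUS went the other way there, at 167 and 243 against 70.8 to 107, with 42.7 to 117 in ndl1. MADS37 stood at 6.96 or less in every library. The 7 anther and meiosis genes summed to 3168 to 3917 in ndl1 and 2631 to 2787 in Bif1;Bif4, against 2431 to 2506 in wildtype. Among the 7, afd1 stood at 1296 to 1835 in ndl1 and 920.2 to 1020 in the double mutant, against 705 to 727 in wildtype, and Dmc1 at 399 to 745 in ndl1 and 222.6 to 246.5 in the double mutant, against 180.5 to 257.7 in wildtype. ZYP1 was lower in ndl1 than in wildtype in every library, at 361 to 425 in ndl1 and 452 to 554 in the double mutant, against 493 to 624 in wildtype. The level of ms32 was 1001 to 1103 in ndl1 and 904 to 1087 in the double mutant, against 946 to 1001 in wildtype, and the other 3 stood at 11.3 or less in every library. The part of these shifts in the levels of the members was not tested.

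**Figure D5:**
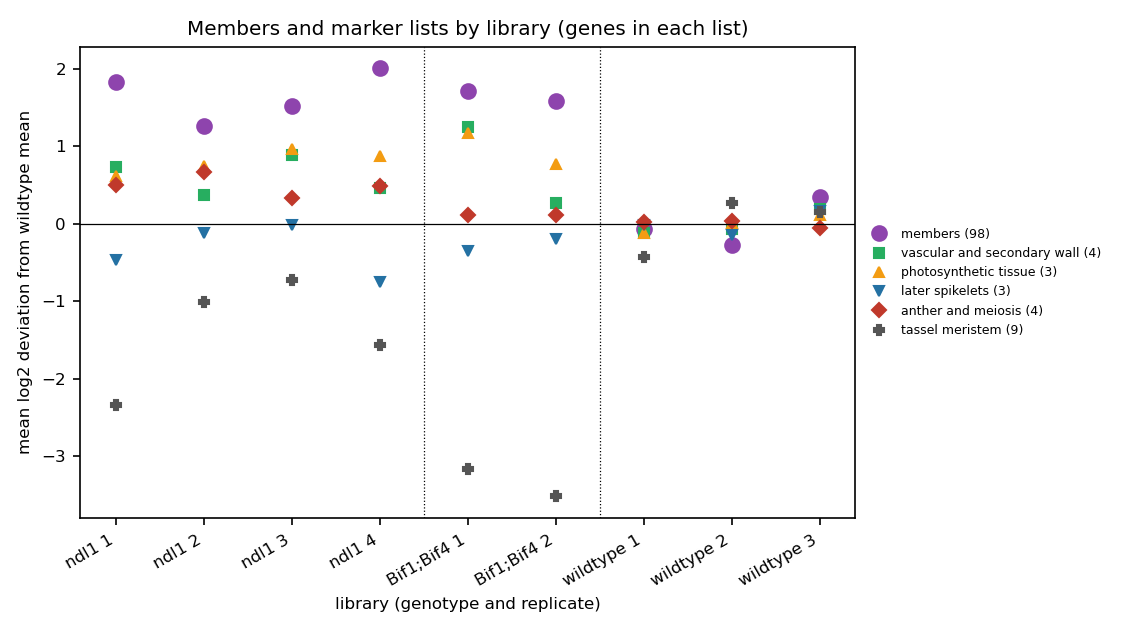
Mean log2 deviation from the wildtype mean (y axis) in each of the 9 libraries (x axis) for the 98 members and 5 marker lists, counting genes with a mean of at least 10, whose number stands in brackets. The members lie between 1.27 and 2.01 in the 6 mutant libraries and between -0.28 and 0.34 in wildtype, and the tassel meristem list lies lowest in both double mutant libraries.

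Of 24 lists of gene families and pathways matched by name, 5 held a member, and the tests over all genes (limma, Benjamini-Hochberg) place those members beside the rest of their list. The MADS box list held m19 and m21. In ndl1 0 of its 23 tested genes passed as higher than in wildtype and 4 as lower (MADS36, ZAGL1, m5 and m16), with a median log2 change of -0.07 beside -0.00 over all genes. In the double mutant 2 of 26 passed as higher (m19 and m31) and 6 as lower (MADS36, ZAGL1, m5, m16, MADS76 and m6), with a median of 0.02 beside 0.00. The homeobox list, with hdz10 and HB84, had 0 genes higher and 4 lower of 36 in ndl1 (median -0.11), and 0 higher and 3 lower of 37 in the double mutant (median -0.20). KN-1 was among those that passed as lower in the double mutant.

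The auxin list held GH3. In ndl1 5 of its 44 tested genes passed as higher (PIN10a, an auxin efflux carrier gene, GH3, AUX3, ARF9 and ARF3) and 0 as lower, with a median of 0.04. In the double mutant ARF13 passed as higher and AUX10 and ARF11 as lower, of 45, with a median of 0.27. None of the 5 called in ndl1 passed there. Among them were PIN10a at 3.42 ± 1.04 and GH3 at 1.435 ± 0.38 (log2 change ± SE, limma, Benjamini-Hochberg adjusted p = 0.114 and 0.0839). The jasmonate list held lox11, which passed as higher in the double mutant as the single gene of 39 (median 0.17), while in ndl1 the single gene of 41 was TIFY2, of the family of jasmonate repressors, with a median of 1.005. The list of glycolysis, sucrose and starch genes held ivr2 and PPCK2. Of its genes, 3 of 29 passed as higher in ndl1 (eno1, an enolase gene, gpc4, a glyceraldehyde-3-phosphate dehydrogenase gene, and ppdk1). In the double mutant 1 of 29 did, ppdk1, and 0 passed as lower in either. Between the mutants, 3 of 29 passed as higher in ndl1 and 2 as lower. On the log2 scale eno1 was higher by 1.21 ± 0.10 (SE, limma, Benjamini-Hochberg adjusted p = 0.000404) and gpc4 by 1.26 ± 0.16 (adjusted p = 0.00361). GAPC (GRMZM2G071630) was higher by 1.008 ± 0.18 (limma, adjusted p = 0.0178). Lower in ndl1 were PPCK1, at -0.81 ± 0.13 (limma, adjusted p = 0.0117), and CYPPDKZM2, at -1.996 ± 0.43 (adjusted p = 0.0367). The difference of ivr2 there was 0.41 ± 0.57 and that of PPCK2 -0.10 ± 0.33, and neither passed. The remaining 19 lists, with those of NAC, WRKY, AP2/ERF and MYB transcription factors, heat shock genes and glutathione transferases, held 0 members. Among these lists were those of GLB1, ppdk1, gst20 and ANAC010, which were left out by name. A list with 0 members can thus still hold a gene raised in both mutants. GLB1 and ppdk1 were called higher than in wildtype in both mutants (limma, Benjamini-Hochberg).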

How the data were processed

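RNA from 9 maize tassel libraries was sequenced from stranded mRNA libraries, per the labels' protocols. Reads were trimmed with Trimmomatic, aligned with TopHat2 2.1.1, counted with HTSeq and analysed with DESeq2, per the submitters' processing notes. Neither a genome build nor HTSeq's strand option is given in the sources used here, so that overlapping, antisense and near-identical genes are uncertain. The authors deposited a table for each mutant with wildtype, holding normalized counts per library (a signal: reads over a size factor) beside DESeq2's log2 fold changes, test score and p-values. The log2 fold changes and scores of the authors' deposited tables were not used, and their adjusted p-values only as counts.

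Dividing the deposited values by the value of 1 read gave whole reads for 100% of values, within 0.1 read. These reads, identical in both tables for wildtype (0 of 39305 genes differed), set the depths and allowed the 9 libraries to be scaled together by median-of-ratios factors. L was computed within each deposited table. The tests were made with limma 3.58.1 (intensity trend) on log2(normalized count + 1) for genes passing edgeR's filterByExpr, with Benjamini-Hochberg adjustment over all genes tested at 0.05. Fold changes on that scale understate the change of low genes. By edgeR 4.0.16 on the recovered reads 355 genes were higher and 414 lower in ndl1 than in Bif1;Bif4. Further, 398 were higher and 286 lower in ndl1 than in wildtype, and 518 and 426 in the double mutant than in wildtype. DESeq2 1.42.0, other scalings, pseudocounts and filters, a replicate block and leaving out each library were the alternatives. Scripts were tested on simulated data.

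The members and gene lists were chosen with earlier results of these data known. Named genes were the members with a descriptive RefSeq symbol, the 10 with the largest and the 5 with the smallest smaller L, the 5 genes just outside, those that differed between the mutants, and neighbours. Lists were matched on RefSeq symbols and synonyms (assembly Zm-B73-REFERENCE-NAM-5.0), used for names and neighbours only. The p-values measure the spread between these libraries, which may be technical, since separate plants are not stated.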

Additional observations from a re-analysis of the deposited data

Results flagged for a closer look

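Among the 31 named members examined, AC234160.1_FG003 had an ndl1 library far from the others: the gap of ndl1 replicate 4, at 377 normalized counts, to the next library took 0.915 of the range of the 4 libraries, above Dixon's 95% critical value for groups of 4. Chance alone gives such a gap in about 1 in 20 groups, and 1 of 31 was found.

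BURP10 (GRMZM2G446170) differed between the mutants, with a log2 difference of 1.08, ndl1 minus Bif1;Bif4, by the direct test with limma, and both mutants stood above wildtype.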

How the results depend on the processing

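The number of genes meeting the rule was 98, and it was 165 with a mutant mean of at least 20, 27 with an L of at least 1.5, 190 with overlap of the groups allowed, and 72 to 278 with a library left out. Of the members, 1 was called higher in ndl1 than in Bif1;Bif4 and 0 lower. With a library left out these counts were 0 to 1 and 0 to 1, and the lower count was 2 by DESeq2 (beside 3.05% of all genes) and 1 with the mutant libraries alone. Against wildtype the ndl1 calls were 91 by DESeq2 (beside 5.72% of all genes) and 9 to 62 with a library left out (beside 0.421% to 4.69%), and the double mutant calls 73 by DESeq2 (beside 4.58%) and 0 to 58 with a library left out (beside 0% to 3.32%). Of all genes tested, 806 differed between the mutants, against 1592 by DESeq2, 363 with the mutant libraries alone and 152 to 897 with a library left out. The causes were not tested. Of 527 values of named members under alternatives, 523 kept their side of the threshold, 3 lost and 1 gained a call, and 0 called values reversed, while 59 uncalled differences changed sign. With the replicate number as a block 0 members were called higher in ndl1 than in Bif1;Bif4 (BURP10, limma adjusted p = 0.0509), and 336 genes differed between the mutants. Against wildtype 35 members were then called higher in ndl1, beside 254 of all 22416 genes. In the double mutant the number was 32, beside 236 of all 22381 genes. The labels do not say that a number marks a shared plant or day, and the deviations of the 7 same-numbered pairs correlated at -0.195 to 0.194, so that the numbers did not pair the samples. Not every library correlated best with its own number.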
